A study of Mus musculus with 9 samples.

Results

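The messenger RNAs described here are the dopamine receptor, cyclic AMP (cAMP) signalling and identity genes of medium spiny neurons, the projection neurons of the striatum. A fixed list of 33 gene symbols was matched to the gene names of a table of 38621 genes, and 32 of them had a row. The remaining gene, Gpr52, was not analysed here. The matching used no measured value, but the genes were chosen with earlier results of these data known. Of the 32, 3 are genes of the direct pathway, 4 of the indirect pathway, 1 is the dopamine receptor Drd3, 10 act in cyclic nucleotide signalling, 4 are transcription factors of both pathways, and 10 are other genes enriched in these cells.

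Medium spiny neurons are GABAergic cells that make up most of the striatum, and they fall into a pair of classes. Cells of the direct pathway carry the dopamine receptor D1, which couples through the G protein Golf to adenylyl cyclase and raises cAMP. Cells of the indirect pathway carry the dopamine receptor D2, which lowers cAMP, together with an adenosine receptor, Adora2a, which raises it. In both classes, cAMP acts through protein kinase A on DARPP-32, an inhibitor of protein phosphatase 1, and is removed by phosphodiesterases. The striatum is a common site of intracerebral hemorrhage (ICH).

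RNA-seq was carried out on brain tissue of 9 male C57BL/6 mice in 3 groups of 3. Sham mice carry the label untreated, while the study's methods describe an injection of saline, ICH mice received 30 µl of autologous whole blood into the brain, and feb mice received febuxostat, a xanthine oxidase inhibitor, at 50 mg/kg by gavage once daily for 5 days before the same blood injection. The dissected region and the time between injection and RNA extraction are not named for these samples, and no batch is given. The deposited values are RPKM, read numbers divided by exon length and by the reads of the library, so that levels of different genes can be compared per length. The reads behind them numbered 23065757 to 29538009 per mouse, and 3 reads on 1 kb of exon corresponded to an RPKM of 0.102 to 0.130, which covers counting error only.

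All 32 genes were detected in each of the 9 mice, with at least 7 reads per gene and mouse, the defining genes Drd1, Drd2, Adora2a and Ppp1r1b included. The sham mice stood apart from each other before any group was compared. The summed RPKM of the 32 genes was 242 in sham 1, 937 in sham 2 and 423 in sham 3, which are the lowest, the highest and the third lowest sums of the 9 mice. It was 479, 681 and 911 in ICH 1, 2 and 3, and 684, 390 and 572 in feb 1, 2 and 3. In bulk tissue, fewer medium spiny neurons and less RNA per neuron cannot be told apart, and neither can a difference in the share of striatum in the sample. The counts, medians and receptor ratios compared with sham are therefore also given without sham 1 and without sham 2.

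The stretches upstream of the start sites of 4 genes are shown because these genes are singled out in the text. No expression result rests on the sequences. Drd1 and Drd2 are the receptors that separate the pathways. Gpr6 was the only one of the 24 genes searched that had a full cAMP response element (CRE, TGACGTCA). Ebf1 was the gene that ran against the others. The last pair was chosen after the values were seen. Each is the 250 bases before a RefSeq start on GRCm38.p6, written 5′ to 3′ on the gene's strand, with the full CRE and GC boxes (GGGCGG, on either strand) in capitals. For genes with several starts, 1 is shown. The Drd1 stretch that is not shown, chr13:54054781-54055030, held 1 GC box. The start of Drd2 lies upstream of its first exon in the deposited table, and that of Ebf1 lies within the span of the deposited gene.
Drd1, chr13:54055659-54055908, minus strand: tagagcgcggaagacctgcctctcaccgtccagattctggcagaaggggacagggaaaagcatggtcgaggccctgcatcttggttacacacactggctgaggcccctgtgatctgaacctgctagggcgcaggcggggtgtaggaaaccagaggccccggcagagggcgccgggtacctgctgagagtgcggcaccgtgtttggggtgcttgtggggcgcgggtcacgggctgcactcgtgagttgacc
Drd2, chr9:49340153-49340402, plus strand: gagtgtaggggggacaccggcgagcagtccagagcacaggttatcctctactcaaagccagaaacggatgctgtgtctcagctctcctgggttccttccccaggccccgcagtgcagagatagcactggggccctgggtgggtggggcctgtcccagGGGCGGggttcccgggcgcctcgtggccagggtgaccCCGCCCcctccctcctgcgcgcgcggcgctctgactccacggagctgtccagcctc
Gpr6, chr10:41072291-41072540, minus strand: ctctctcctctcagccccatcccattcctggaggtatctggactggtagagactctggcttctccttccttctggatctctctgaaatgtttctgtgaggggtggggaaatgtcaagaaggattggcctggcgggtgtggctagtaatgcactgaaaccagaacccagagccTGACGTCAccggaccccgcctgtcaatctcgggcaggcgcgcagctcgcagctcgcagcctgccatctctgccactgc
Ebf1, chr11:44617850-44618099, plus strand: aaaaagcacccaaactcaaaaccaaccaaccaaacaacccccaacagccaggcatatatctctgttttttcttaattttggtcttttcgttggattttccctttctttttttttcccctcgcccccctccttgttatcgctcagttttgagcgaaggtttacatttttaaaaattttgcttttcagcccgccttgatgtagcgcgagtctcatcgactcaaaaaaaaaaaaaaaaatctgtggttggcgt

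With starts on chromosome 18 left out, RefSeq starts were found for 24 of the 32 genes, giving 41 upstream stretches. Gnal and Sh3rf2 lie on chromosome 18 and so were not searched, while the 32851 mouse stretches were not filtered in this way. In the 41 stretches, 4 motifs were searched on both strands. The full CRE was present in 1 of the 41, that of Gpr6, against 1.55% of the 32851 mouse stretches of the same length. The CRE core, TGACG, which also lies within the full CRE, was present in 7 of the 41 (17.1%), belonging to Arpp21, Foxp1, Gpr6, Isl1, Ptpn7 and Ric8b, against 17.8% of all stretches. The GC box was present in 14 (34.1%) against 32.7%. The TATA box TATAAA was present only in a stretch of Rgs9 (2.44%) against 12.4%. These are matches of letters and say nothing of binding.

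Drd1 (chromosome 13, 54051186 to 54055658, minus strand), the receptor of the direct pathway, was the gene with the widest spread between sham mice. Its RPKM was 0.538, 11.8 and 3.21 in sham 1, 2 and 3, 5.56, 7.79 and 11.1 in ICH 1, 2 and 3, and 7.66, 2.82 and 5.77 in feb 1, 2 and 3. The sham mice held both the lowest and the highest of the 9 values, 21.9-fold apart, and the groups overlapped. Isl1, a LIM homeodomain factor of direct pathway neurons, was at 1.79 ± 1.26 (SD, n = 3) in sham, 2.20 ± 0.569 in ICH and 2.53 ± 1.35 in feb. Ebf1, a transcription factor of direct pathway neurons that mural cells of vessels also use, ran the other way. Its RPKM was 2.83, 1.49 and 1.73 in sham 1, 2 and 3, 1.35, 1.12 and 1.55 in ICH 1, 2 and 3, and 1.44, 1.67 and 1.04 in feb 1, 2 and 3, so that its highest value was in sham 1, the mouse with the lowest Drd1. The summed RPKM of 6 mural cell markers (Pdgfrb, Rgs5, Kcnj8, Abcc9, Vtn and Notch3) was 47.2 to 55.3 in sham, 48.8 to 50.5 in ICH and 32.5 to 45.2 in feb, and their part in the Ebf1 values was not tested.

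The indirect pathway genes followed the same mice as Drd1. Drd2 (chromosome 9, 49340627 to 49408177, plus strand) was at 3.84, 16.9 and 8.10 RPKM in sham 1, 2 and 3, 7.26, 11.9 and 16.7 in ICH 1, 2 and 3, and 10.6, 6.13 and 8.85 in feb 1, 2 and 3. Adora2a, the adenosine receptor gene of these neurons, was at 0.842, 13.9 and 3.76 in sham, 4.32, 9.29 and 13.0 in ICH, and 7.08, 3.83 and 4.29 in feb. For both genes, sham 1 was the lowest and sham 2 the highest of the 9 mice, and ICH 3 was the second highest. Gpr6, an orphan receptor that raises cAMP in indirect pathway neurons, was at 0.322, 3.58 and 1.12 RPKM in sham, 2.15, 2.41 and 3.46 in ICH, and 2.75, 1.33 and 2.02 in feb. Again the sham values enclosed those of both other groups. Six3, a homeobox factor needed for D2 neurons, was at 2.37 ± 1.48 (SD, n = 3) in sham, 2.31 ± 0.541 in ICH and 2.69 ± 0.551 in feb. Another dopamine receptor gene, Drd3, which is used mainly in the ventral striatum, was low in all mice at 0.163 to 1.31 RPKM (7 to 50 reads).

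Ppp1r1b, which encodes DARPP-32, was the most abundant of the 32 genes in ICH and feb. Its RPKM was 26.8, 186 and 69.8 in sham 1, 2 and 3, 82.9, 147 and 193 in ICH 1, 2 and 3, and 162, 60.3 and 144 in feb 1, 2 and 3. Of its exon bases, 15.7% were shared with 1700003D09Rik on the other strand, and whether the counting used strand is not stated. Rgs9, a striatal regulator that speeds the return of G proteins to the inactive state, was at 4.45, 35.6 and 11.3 RPKM in sham, 17.9, 23.6 and 31.2 in ICH, and 22.9, 11.6 and 20.3 in feb. Pde10a, a phosphodiesterase of both cAMP and cGMP, was at 6.00, 37.7 and 13.3 RPKM in sham, 17.9, 27.6 and 36.9 in ICH, and 27.2, 13.5 and 20.3 in feb. In all 3 genes, sham 1 was lowest, and sham 2 and ICH 3 were the highest pair.

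Other genes of the cascade varied less between mice. Adcy5, the main adenylyl cyclase of the striatum, was at 49.5 ± 33.4 RPKM (SD, n = 3) in sham, 60.8 ± 15.6 in ICH and 45.5 ± 7.57 in feb. Gnal, which encodes the Golf alpha subunit, was at 43.1 ± 19.5, 44.6 ± 10.3 and 35.7 ± 3.40, with 6.34% of its exon bases shared with Mppe1 on the other strand. Ric8b, the chaperone of that subunit, had the narrowest spread of the 32 genes, from 8.68 RPKM in sham 1 to 14.7 in sham 2. Pde1b, a calcium-dependent phosphodiesterase, was at 102 ± 61.3 in sham, 118 ± 37.9 in ICH and 90.9 ± 19.3 in feb, and Pde7b, which is specific to cAMP, ranged from 2.17 in sham 1 to 7.46 in sham 2. Arpp21, a protein kinase A substrate that the cortex also expresses, was at 10.7, 29.6 and 12.5 in sham, 26.5, 26.5 and 29.2 in ICH, and 19.9, 17.8 and 23.8 in feb. Here the ICH mice were within 1.10-fold of each other and above all feb mice, while sham 2 lay above all 3. Rasd2, a striatal small GTPase also named Rhes, was at 23.0 ± 14.2 in sham, 29.1 ± 11.3 in ICH and 26.7 ± 10.5 in feb.

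**Figure D1:**
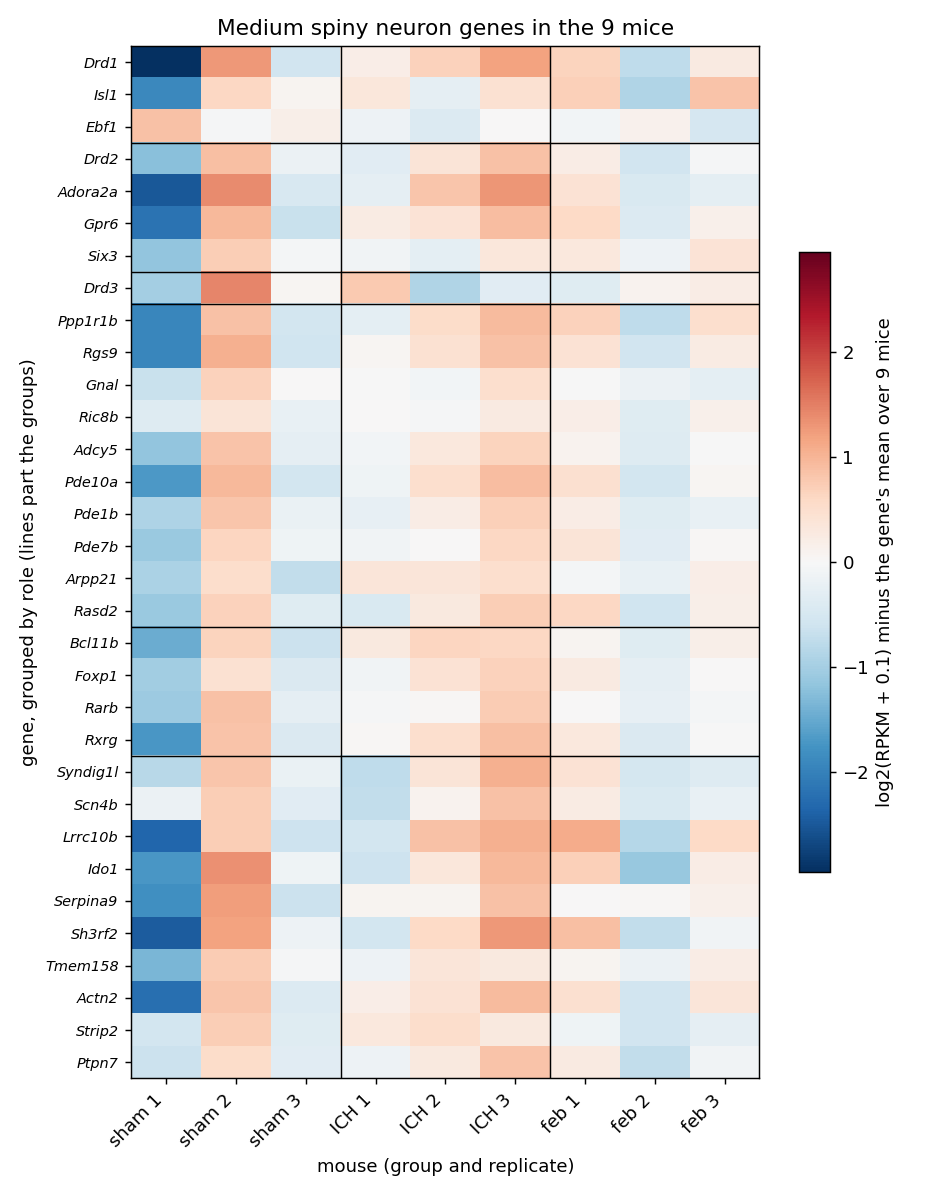
Each row is 1 of the 32 genes, in groups by role parted by horizontal lines (direct pathway, indirect pathway, Drd3, cyclic nucleotide signalling, transcription factors, other genes), and each column is 1 mouse, with vertical lines between the groups. Colour is log2(RPKM + 0.1) minus the gene's mean over 9 mice; sham 1 was lowest for 28 genes and sham 2 highest for 20, while the row of Ebf1 runs the other way.

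The 4 transcription factors shared by both pathways gave the same picture. Bcl11b (Ctip2), which medium spiny neurons need to mature and which deep cortical layers also use, was at 13.3 ± 9.79 RPKM (SD, n = 3) in sham, 22.2 ± 2.83 in ICH and 15.2 ± 2.86 in feb. Foxp1, also used in cortex, ranged from 3.92 in sham 1 to 12.9 in ICH 3. The retinoid receptor genes Rarb and Rxrg were at 6.30 ± 4.27 and 8.06 ± 6.61 in sham, 7.41 ± 2.39 and 12.2 ± 3.56 in ICH, and 5.62 ± 0.496 and 8.40 ± 2.11 in feb. Among the other genes, Scn4b, a sodium channel beta subunit, was the most abundant at 34.7 ± 15.0, 36.4 ± 19.0 and 28.8 ± 7.30, and Ptpn7, a phosphatase, the least at 0.173 ± 0.123, 0.268 ± 0.128 and 0.159 ± 0.0851. Actn2, which encodes the spine protein alpha-actinin, was at 9.57 ± 8.35 in sham, 15.5 ± 4.16 in ICH and 11.7 ± 4.07 in feb. Sh3rf2, an adaptor gene, ranged from 0.160 in sham 1 to 3.32 in ICH 3, and Ido1, which encodes a tryptophan-degrading enzyme, from 0.241 in sham 1 to 2.75 in sham 2. Lrrc10b, Serpina9, Syndig1l, Tmem158 and Strip2 had fold ranges over the 9 mice of 11.2, 10.8, 3.62, 4.33 and 2.49.

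**Figure D2:**
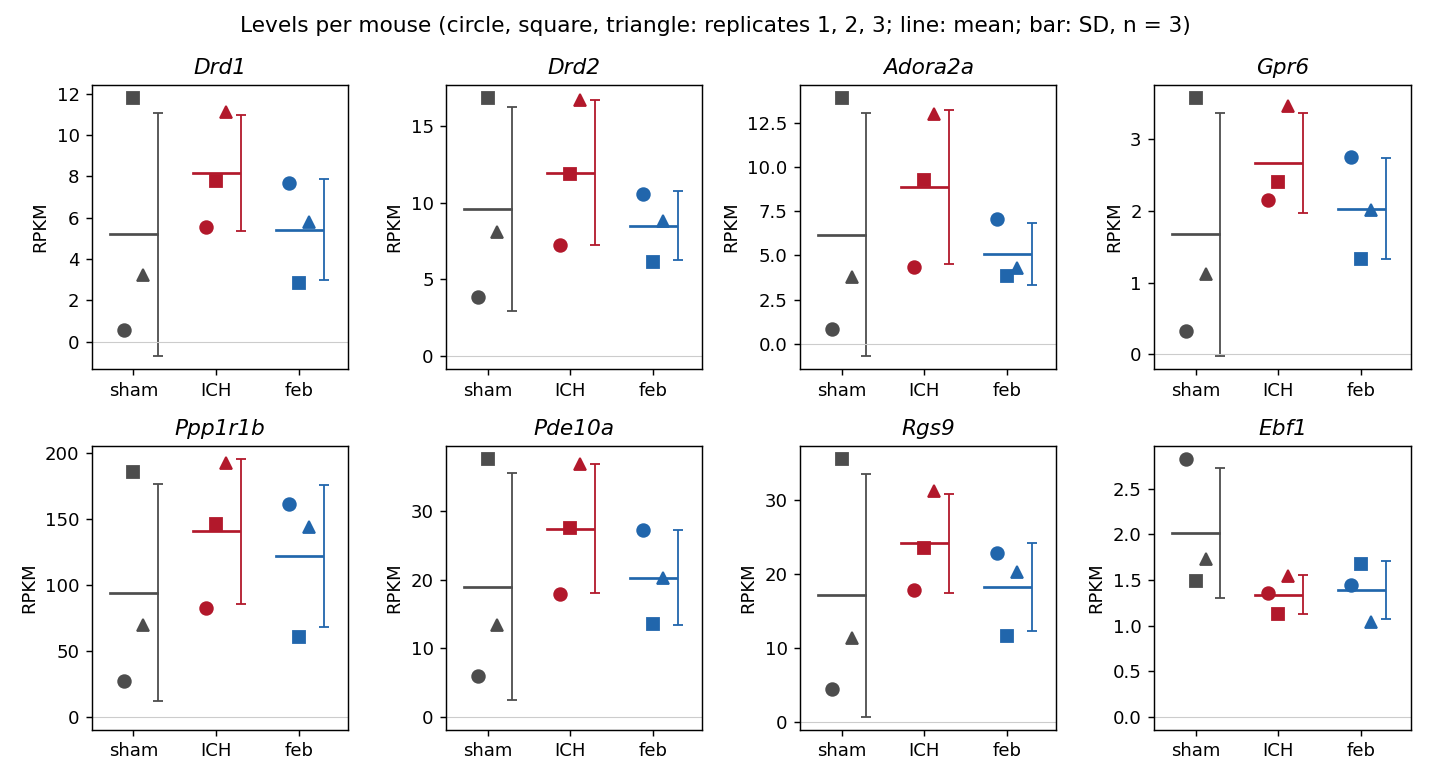
RPKM of 8 genes by group; circle, square and triangle are replicates 1, 2 and 3, horizontal lines are group means, and bars beside them are the mean ± SD (n = 3), which can reach below 0 although RPKM cannot. In each panel the sham mice span a wider range than the ICH or feb mice, with Drd1 at 0.538 to 11.8 RPKM in sham, and in the panel of Ebf1 the highest point is sham 1.

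The differences between mice of the same group exceeded those between groups. The RPKM of sham 2 over sham 1 had a median of 4.35 over the 32 genes, with 31 above 1 and 29 above 2, and ranged from 0.526 for Ebf1 to 21.9 for Drd1. The same ratio had a median of 1.74 for ICH 3 over ICH 1 and 1.67 for feb 1 over feb 2, with 11 genes above 2 in each. Sham 2 was among the 2 highest mice for 29 genes and ICH 3 for 25, while feb 2 was among the 3 lowest for 29 and sham 1 for 30. The SD between mice of a group, pooled over the 3 groups on the log2(RPKM + 0.1) scale, had a median of 0.72 over the 32 genes and of 0.28 over the 29025 genes tested, and each of the 32 lay above the latter. The groups accounted for a median of 14.2% of a gene's variance among these genes and of 32.2% over all genes tested. Of 8 markers shared by all neurons, Snap25, Syt1, Rbfox3, Map2, Stmn2 and Tubb3 had an SD of 0.15 to 0.27. The neurofilament genes Nefl and Nefm were the exceptions at 0.55 and 0.65. A wide spread was not particular to the 32 genes. The median SD was 0.70 for 6 thalamus markers and 2.03 for 5 of hypothalamus and midbrain. It was 0.60 for 5 markers of hippocampus, 0.59 for 5 of cortical excitatory neurons and 0.47 for 8 of striatal interneurons. For 6 mural cell and 5 microglia markers it was 0.19 and 0.28.

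The comparison of ICH with sham asks how the RNA of these neurons stood after blood was injected. None of the 32 genes passed the study's criteria, an unadjusted p under 0.05 and a fold change over 2, in the limma fit across all genes, against a background of 2.53% of genes tested. Values lay above sham in 30 of the 32 genes, or in 29 after scaling each mouse to the same median or with voom on recovered reads, with a median log2 fold change of 0.49 against 0.08 over all genes, of which 61.1% were higher. The lone gene with an unadjusted p under 0.05 was Arpp21 (12.3% of all genes), at 0.79 ± 0.33 (SE) and an adjusted p of 0.393, while voom gave 3 such genes. By either tool none had an adjusted p under 0.05, which 7 genes in all (0.0241%) had by limma. The largest difference was that of Drd1, 1.44 ± 0.91 with a 95% interval of -0.63 to 3.50. Next were Lrrc10b at 1.19 ± 0.80, Gpr6 at 1.14 ± 0.67, Adora2a at 1.14 ± 0.85 and Actn2 at 1.13 ± 0.66, whose adjusted p by limma was 0.486 to 0.572. Ebf1 and Drd3 lay below sham, at -0.51 ± 0.26 and -0.32 ± 0.62. For none of the genes were all ICH mice on 1 side of all sham mice, which held for 19.4% of genes tested.

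This comparison turned on single sham mice. Without sham 1 the median log2 fold change of the 32 genes was 0.01, with 17 higher and 15 lower and none called, against a background of 2.30% called. Without sham 2 it was 1.03, with 31 higher, and 15 of the 32 genes were called against 4.48% of all genes, among them Drd1 at 2.45 ± 0.70 (adjusted p = 0.141), Adora2a at 2.10 ± 0.65, Ppp1r1b at 1.62 ± 0.57 and Arpp21 at 1.24 ± 0.13. In that fit by limma, only Arpp21 of the 32 had an adjusted p under 0.05 (0.0326), as had 122 genes in all.

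The comparison of feb with ICH asks what changed with febuxostat before the same injury. None of the 32 genes was called, against 2.43% of genes tested. Values lay below ICH in 28 of the 32, with a median log2 fold change of -0.35 against -0.01 over all genes, of which 52.2% were lower, and the number was 28 under either scaling. Strip2, a component of the STRIPAK phosphatase complex, was the lone gene with an unadjusted p under 0.05 (11.1% of all genes), at -0.68 ± 0.30 (SE) and an adjusted p of 0.450 by limma, and voom also gave 1. None had an adjusted p under 0.05, against 0.00689% of all genes. Strip2 was at 6.45, 4.73 and 5.89 RPKM in feb 1, 2 and 3 and at 8.72, 10.1 and 8.63 in ICH 1, 2 and 3, with no overlap. The groups also did not overlap for Bcl11b (-0.55 ± 0.44) and Arpp21 (-0.43 ± 0.33), so for 3 of the 32 genes, against 17.2% of genes tested. Drd1, Drd2, Adora2a and Ppp1r1b were at -0.64 ± 0.91, -0.44 ± 0.51, -0.71 ± 0.85 and -0.25 ± 0.68. The 4 genes above ICH were Isl1, Ebf1, Six3 and Drd3, at 0.03 to 0.21. Without ICH 3, the ICH mouse with the highest sum, 12 of the 32 lay above ICH and the median was -0.11, without feb 2 it was -0.16, and without ICH 1 it was -0.59.

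The comparison of feb with sham, which shares its mice with the others, called none of the 32 genes, against 2.20% of genes tested. None had an unadjusted p under 0.05 by limma or voom, against 8.54% by limma over all genes, or an adjusted p under 0.05 (0.00345%), and the lowest adjusted p was 0.638. For no gene were all feb mice on 1 side of all sham mice, which held for 12.7% of genes tested. Values lay above sham in 24 genes, or in 19 after scaling each mouse to the same median, with a median of 0.32 against 0.05 over all genes, of which 58.7% were higher. Drd1 stood at 0.80 ± 0.91 (SE), Ppp1r1b at 0.67 ± 0.68, Adora2a at 0.43 ± 0.85 and Drd2 at 0.04 ± 0.51. Without sham 1, 30 of the 32 lay below sham and the median was -0.25, with none called against 2.06% of genes. Without sham 2, 31 lay above it with a median of 0.79, and 10 were called against 3.96% of all genes, at adjusted p of 0.28 to 0.378 by limma. These 10 were Drd1, Gpr6, Ppp1r1b, Rgs9, Pde10a, Bcl11b, Rxrg, Lrrc10b, Serpina9 and Actn2.

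The data do not show that these genes stayed the same. The 95% interval of the log2 fold change had a median width of 2.27, and it reached a 2-fold difference for 29 of the 32 genes in ICH against sham, 29 in feb against ICH and 28 in feb against sham.

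**Figure D3:**
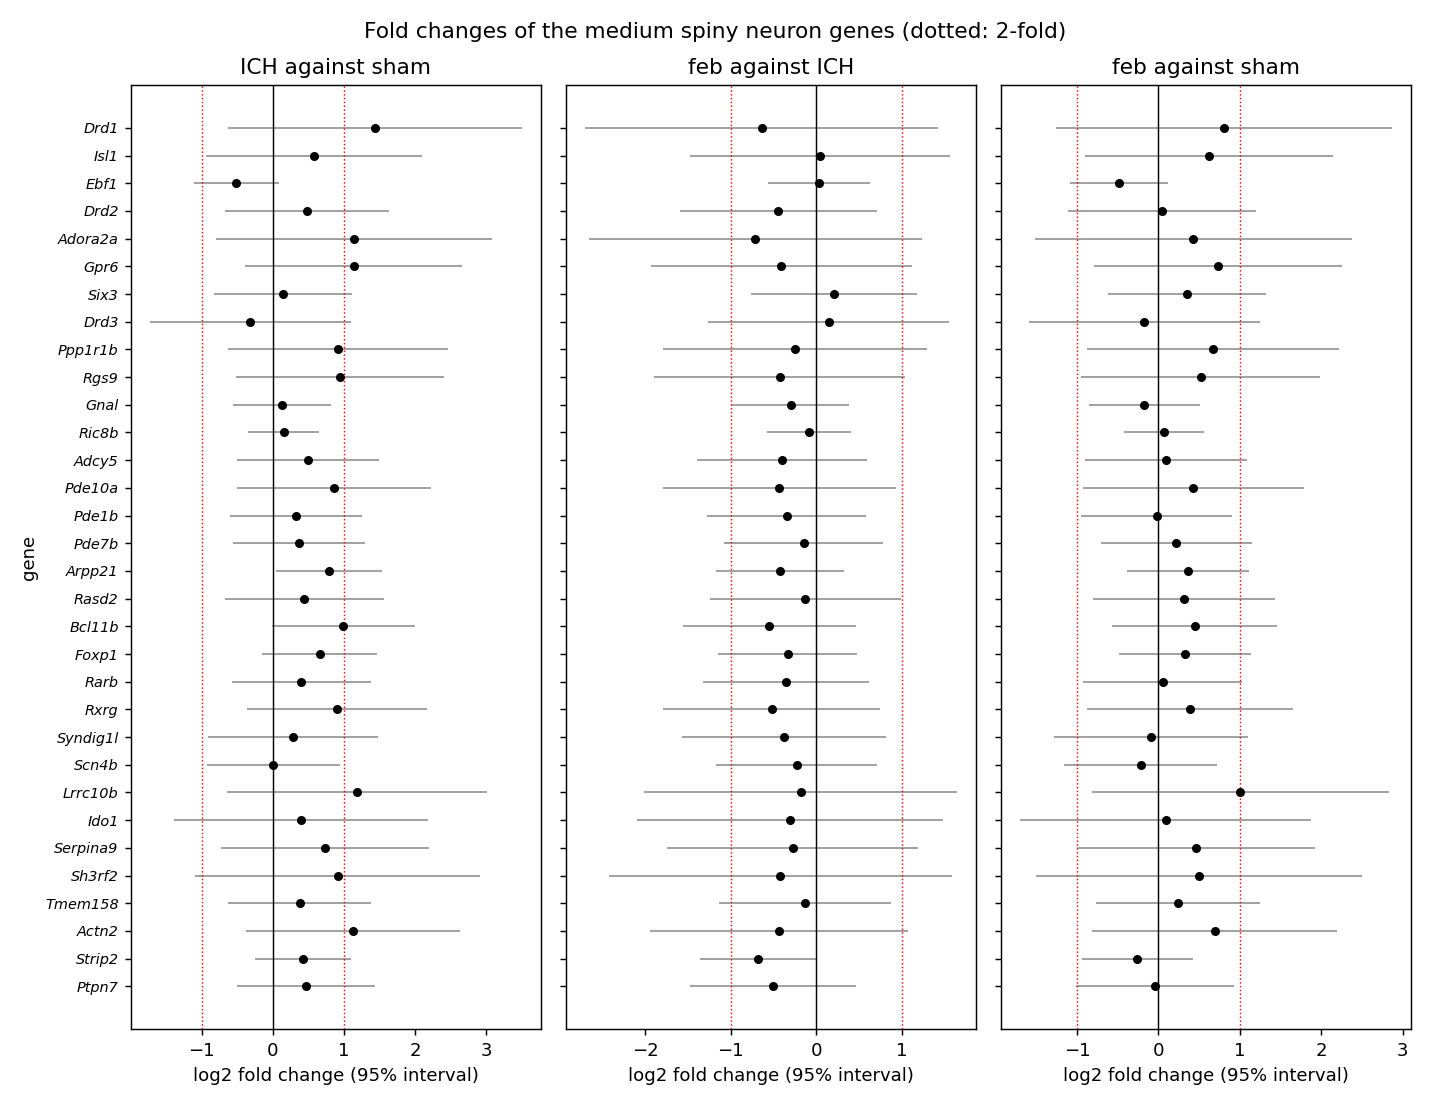
Log2 fold change of each of the 32 genes in the 3 comparisons, on the log2(RPKM + 0.1) scale, with 95% intervals from limma; the solid line marks 0 and the dotted lines a 2-fold difference. Most points lie right of 0 in ICH against sham and left of it in feb against ICH, and the intervals hold 0 for 31, 31 and 32 genes in the panels from left to right.

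A direct and an indirect pathway receptor gene, Drd1 and Drd2, were compared within each mouse, so that a change of both together cancels. Apart from these and Adora2a, no gene of either pathway entered a ratio. The RPKM of Drd1 over that of Drd2 was 0.140, 0.699 and 0.396 in sham 1, 2 and 3, 0.765, 0.654 and 0.663 in ICH 1, 2 and 3, and 0.724, 0.460 and 0.652 in feb 1, 2 and 3. Drd1 was below Drd2 in all 9 mice, and the lowest ratios were those of sham 1, sham 3 and feb 2. On the log2 scale the ratio was -1.56 ± 1.18 (SD, n = 3) in sham, -0.53 ± 0.13 in ICH and -0.73 ± 0.34 in feb. The differences were 1.03 for ICH against sham, -0.20 for feb against ICH and 0.83 for feb against sham, with an exact two-sided permutation p of 0.3, 0.4 and 0.3, each 0.4 after adjustment over the 3 comparisons. The smallest p that 3 against 3 mice allow is 0.1. Without sham 1 the differences from sham were 0.40 for ICH and 0.19 for feb, and without sham 2 they were 1.56 and 1.35.

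With Adora2a as the indirect pathway gene the receptors stayed closer. The log2 ratio of Drd1 to Adora2a was -0.37 ± 0.24 in sham, -0.04 ± 0.35 in ICH and 0.03 ± 0.44 in feb, and the differences of 0.33, 0.072 and 0.40 had an exact permutation p of 0.4, 0.9 and 0.3. Without sham 1 the differences from sham were 0.19 for ICH and 0.27 for feb, and without sham 2 they were 0.40 and 0.47. Feb thus lay above ICH by this ratio and below it by Drd1 over Drd2. Drd2 over Adora2a was 4.56 in sham 1 and 2.15 in sham 3, against 1.21 to 2.06 in the other 7 mice. Drd2 is also made by midbrain dopamine neurons, as their autoreceptor. Slc6a3, the dopamine transporter of those neurons, singled out after its values were seen, was at 2.91, 6.01 and 1.82 RPKM in sham 1, sham 3 and feb 2, the mice with the lowest Drd1 over Drd2, and at 0 to 0.165 in the other 6. Th, the dopamine-synthesis enzyme, was at 1.52, 2.71 and 1.14 in those 3 mice and at 0.436 to 1.78 in the others. Drd2 over Adora2a did not follow Slc6a3 in every mouse: it was 1.60 in feb 2, below the 1.68 of ICH 1 and the 2.06 of feb 3, where Slc6a3 was at 0.165 and 0.0502 RPKM. The part of midbrain tissue in the ratios was not tested.

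**Figure D4:**
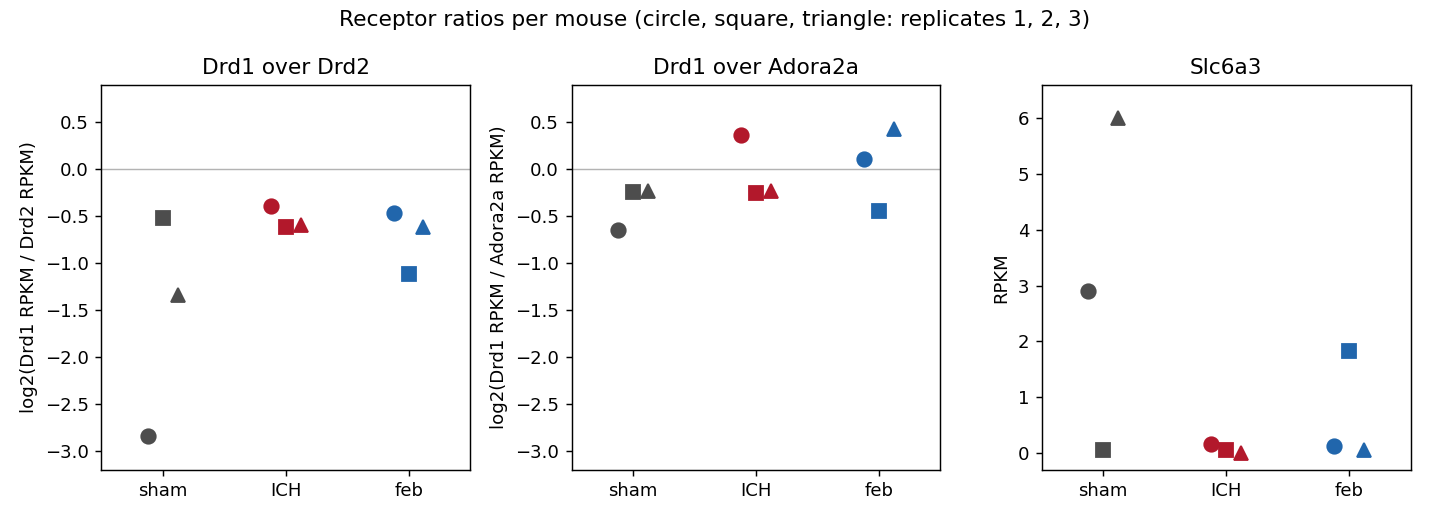
Left and middle, log2 ratio of the RPKM of Drd1 to that of Drd2 and of Adora2a in each mouse, with a line at equal RPKM; right, RPKM of Slc6a3 in the same mice. Circle, square and triangle are replicates 1, 2 and 3; sham 1, sham 3 and feb 2 have the lowest Drd1 over Drd2 and the highest Slc6a3, at 2.91, 6.01 and 1.82 RPKM.

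How closely the genes followed Drd1 from mouse to mouse was examined after these values were seen, as the correlation of log2(RPKM + 0.1) over the 9 mice. Pearson's r with Drd1 was over 0.9 for 20 of the other 31 genes (64.5%) and for 214 of 29024 genes tested (0.737%), with a median of 0.93 against 0.11. Among 35 further genes of these neurons and their signalling, described below, 9 (25.7%) were over 0.9. Their median was 0.79, with a range of -0.73 to 0.989. Actn2 had the highest r of all genes tested at 0.996 (exact permutation p = 1.65e-05, rho = 0.967), followed by Gpr6 and Rgs9, both at 0.993. Adcy5 had r = 0.964 with the exact p of 2.76e-06, the smallest that permuting the pairs can give, and the same order of mice as Drd1 (rho = 1, exact permutation p = 5.51e-06). Indirect pathway genes followed the D1 receptor as well: r was 0.968 for Adora2a (exact permutation p = 1.1e-05, rho = 0.967) and 0.934 for Drd2 (exact permutation p = 5.79e-05, rho = 0.983). After Benjamini-Hochberg adjustment over all genes tested, 13 of the 31 had an adjusted permutation p under 0.05 by r and 1, Adcy5, by rho. All points come from the same libraries, so depth and tissue composition are shared between the genes.

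The relation was weaker, but still present for most of the genes, without the sham mice at either end. Without sham 1 and sham 2, the 2 mice farthest from the median of Drd1, the median r was 0.88 over the 31 genes and 0.06 over all genes, and 9 of the 31 were over 0.9 (29.0% against 0.789%). With each group's mean removed and all 9 mice kept, the median was 0.95, which does not test the weight of those sham mice. Several genes stood outside it. Ebf1 had r = -0.785 (exact permutation p = 0.0264, adjusted 0.240, rho = -0.5), or -0.426 without those mice, Drd3 had 0.454, or -0.469 without them, and Scn4b had 0.547, or 0.777 without them. Six3 and Isl1, at 0.878 and 0.870, went to 0.459 and 0.568 without them.

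**Figure D5:**
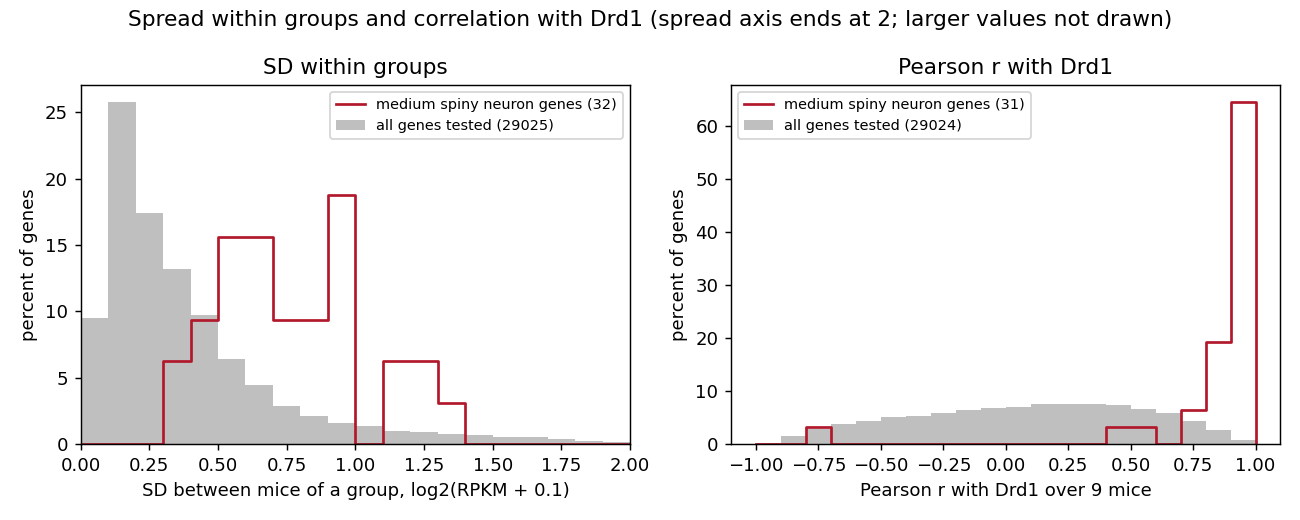
Left, distribution of the SD between mice of a group on the log2(RPKM + 0.1) scale; right, distribution of Pearson's r with Drd1 over 9 mice, both as percent of genes. Grey bars are all genes tested and the red line is the medium spiny neuron genes, which lie to the right in both panels, with medians of 0.72 against 0.28 and of 0.93 against 0.11.

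A further 35 genes of these neurons and of their cAMP and calcium signalling, which were not among the 32, were tested in the same fit. Tac1 and Pdyn, the precursor genes of substance P and dynorphin in direct pathway neurons, were at 4.27 ± 3.33 and 8.25 ± 8.23 RPKM (SD, n = 3) in sham, 4.97 ± 0.118 and 8.99 ± 0.649 in ICH, and 4.33 ± 1.70 and 6.82 ± 1.45 in feb. Chrm4, a muscarinic receptor of the same neurons, was at 3.02 ± 2.70, 4.91 ± 0.452 and 3.15 ± 0.155. Penk, the enkephalin precursor of indirect pathway neurons, was at 67.4, 328 and 127 in sham 1, 2 and 3, 132, 265 and 246 in ICH, and 186, 117 and 209 in feb, again with sham 1 lowest and sham 2 highest. In ICH against sham, 27 of the 35 lay above sham (61.1% of all genes), 6 had an unadjusted p under 0.05 (12.3%) and 2 were called (2.53%), both higher: Kcnj4, an inward rectifier channel, at 1.09 ± 0.42 (SE), and Cnr1, the cannabinoid receptor CB1, at 1.04 ± 0.22, with adjusted p of 0.386 and 0.294 by limma. The others of the 6 were Ppp3ca at 0.67, Itpr1 at 0.56 and Grik3 at 0.41, with Prkaca lower at -0.27. In feb against ICH none was called (2.43% of all genes), and Cnr1 (-0.59) and Grik3 (-0.34) had an unadjusted p under 0.05 (11.1%). In feb against sham none was called (2.20%) and none had an unadjusted p under 0.05 (8.54%). Counts of genes above sham and of genes called were also taken without single sham mice, a choice made after the data were seen. Without sham 1, 21 of the 35 lay above sham in ICH and none was called (2.30%). Without sham 2, 31 lay above it and 13 were called, all higher (4.48%), Kcnj4, Cnr1, Pdyn, Tac1, Penk and Chrm4 among them. In feb against sham the genes called were 0 without sham 1 and 7, all higher, without sham 2 (3.96%). Cnr1 and Kcnj4 are also expressed in cortex.

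Markers of other brain regions and cell types also moved between mice and groups, and their calls are read against the same background of 2.53% in ICH against sham, 2.43% in feb against ICH and 2.20% in feb against sham. Of 5 markers of cortical excitatory neurons, 4 were called higher in ICH than in sham (Tbr1, Neurod6, Emx1 and Slc17a7), as were the same 4 without sham 1 and 3 of them, all but Neurod6, without sham 2. The summed RPKM of the 5 was 21.9 to 40.8 in sham, 51.6 to 112 in ICH and 47.3 to 64.6 in feb. Cortex also expresses Arpp21, Bcl11b and Foxp1, and the part of cortical tissue in their values was not tested. By group mean 28 of the 32 medium spiny neuron genes were highest in ICH, and the share over all genes is not given here. This count rests on single mice: in ICH, 17 of the 32 lay above sham without sham 1 and 31 without sham 2.

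The 6 thalamus markers summed to 179 to 300 RPKM in sham, 58.7 to 218 in ICH and 125 to 260 in feb. One of them, Tcf7l2, was called lower in ICH than in sham, and it was not called without sham 1. Of the 8 markers of all neurons, 3 had an unadjusted p under 0.05 in ICH against sham and 1 was called: Nefm was lower at -1.07 ± 0.44 (SE, adjusted p = 0.394 by limma). Nefm was not called without sham 1, and Nefl was called beside it without sham 2. Nefl and Nefm ran against Drd1 over the 9 mice, with r of -0.882 and -0.842. The other markers of all neurons were mixed. Stmn2, Tubb3 and Snap25 had r of -0.724, -0.622 and -0.595, while Map2, Rbfox3 and Syt1 had 0.430, 0.452 and 0.915. Of the markers of hippocampus, hypothalamus and midbrain, cerebellum, striatal interneurons, choroid plexus, mural cells, astrocytes, microglia, oligodendrocytes and blood, none was called in ICH against sham by limma, and 1 cerebellar, 1 interneuron and 2 microglia markers had an unadjusted p under 0.05. None of these was called without sham 1, and without sham 2 there were 2 of hypothalamus and midbrain, 1 of cerebellum and 3 of striatal interneurons. Gabra6, a defining marker of cerebellum, was at 0 to 0.0152 RPKM in all mice but sham 1 (0.748).

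In feb against ICH, where 28 of the 32 medium spiny neuron genes lay below ICH, the markers called lower were 8 of 8 of choroid plexus, 4 of 5 of blood, 2 of 5 of cortical excitatory neurons and 1 of 5 of microglia, while 1 of 5 of hypothalamus and midbrain was called higher. The cortical markers did not all fall: 3 of the 5 lay below ICH and 2 above it, at log2 fold changes of -1.48 to 0.61. The choroid plexus markers summed to 365 to 1035 RPKM in sham, 458 to 967 in ICH and 30.6 to 88.4 in feb. In feb against sham, 7 of the 8 choroid plexus markers and 3 of the 5 blood markers were called lower, and 1 marker each of cortical excitatory neurons, hippocampus, hypothalamus and midbrain, and striatal interneurons was called higher. Without sham 1 and without sham 2, the choroid plexus markers called lower numbered 7 and 8, and those of blood 2 and 0. Without sham 2, Aqp4 of astrocytes and Slc6a3 of hypothalamus and midbrain were also called lower. The hippocampal marker and the interneuron marker were not called without sham 1. The 8 markers of striatal interneurons summed to 128 to 197 in sham, 179 to 243 in ICH and 137 to 234 in feb. The part of these tissues and cells in the values of the medium spiny neuron genes was not tested.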

How the data were processed

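Total RNA of mouse brain tissue was depleted of ribosomal RNA, and stranded libraries with unique molecular identifiers were sequenced. Per the labels and the study's methods, the authors trimmed reads with Trimmomatic 0.36, merged reads of 1 molecule into consensus reads, aligned them to GRCm38, summed exon reads by gene in featureCounts (Subread 1.5.1) and deposited RPKM values, 1 column per mouse. The annotation release and the use of strand in counting are not given in the sources used here. The authors tested groups with edgeR 3.12.1.

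Since the deposited unit was RPKM, limma 3.58.1 (R 4.3.3) with an intensity trend was fitted on log2(RPKM + 0.1) to 29025 genes, those reaching an RPKM of 0.1 in 3 or more of the 9 mice, with 3 group means and no block. This pseudocount understates changes of low genes. P-values were adjusted by Benjamini-Hochberg over all genes tested, and a gene was called at an unadjusted p under 0.05 and a fold change over 2. Whole reads were recovered from RPKM and exon length (100% of values within 0.05 of a whole number) for a fit with voom and TMM factors. The labels name separate mice by number only. Correlations of same-numbered mice, as deviations from group means, were -0.13 to 0.02, so no pairing by number was seen. With 3 mice per group this cannot exclude a batch shared by number. Exact permutation was used for ratios and correlations (scipy 1.17.1, numpy 2.4.6 and pandas 2.3.3 under Python 3.11.15), and matplotlib 3.10.9 for figures. Upstream sequences are RefSeq's for GRCm38.p6; shared exon bases were computed from the deposited exon positions.

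The 32 genes, the further pathway genes and the marker lists were chosen with earlier results of these data known. A marker gene of the cortical list is not reported here, and the sums and counts of that list leave it out. All 32 are named, with values in every mouse for the main receptors and signalling genes and for genes singled out. The limma fit was also run on simulated reads. Of the genes changed 4-fold there, 92.7% were called and 72.4% had an adjusted p under 0.05 by limma. The criterion for passing was changed after the first was not met. The simulated mice did not differ in tissue composition, so the run says nothing of power for these genes. Alternatives were other pseudocounts, filters, scaling, fits, voom, a replicate block and leaving out each mouse in turn. Leaving out single sham mice for the further genes, the markers and the ratio to Adora2a was added after seeing the data.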

Additional observations from a re-analysis of the deposited data

How the results depend on the processing

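Under pseudocounts of 1 and 0.01, no filter or an RPKM of at least 1, scaling to equal medians, a fit of only the 2 groups compared and voom, none of the genes (32, or 30 with the stricter filter) was called in any comparison and the median log2 fold changes kept their direction, at 0.38 to 0.57 for ICH against sham, -0.35 to -0.29 for feb against ICH and 0.18 to 0.34 for feb against sham. Scaling to equal medians moved the median of all genes from 0.08 to -0.03 in ICH against sham and from 0.05 to -0.06 in feb against sham. At most 5 of the 32 genes changed sign under any of these settings. With the replicate number as a block, no gene was called or had an unadjusted p under 0.05, with a lowest adjusted p of 0.526, 0.562 and 0.763 for ICH against sham, feb against ICH and feb against sham, and no call changed. Leaving out 1 mouse at a time, the genes called numbered 0 to 15 for ICH against sham, 0 for feb against ICH and 0 to 10 for feb against sham, the upper ends without sham 2. The medians ranged from 0.01 to 1.03, -0.59 to -0.11 and -0.25 to 0.79, and the last reversed without sham 1, when 22 genes changed sign. Where a group kept 2 mice, the spread was pooled over all groups. The log2 ratio of Drd1 to Drd2 ranged over 0.40 to 1.56, -0.34 to -0.01 and 0.19 to 1.35, and feb against ICH reversed to 0.072 with Adora2a in place of Drd2. With 3 mice per group the intervals were wide. Genes at few reads (Drd3, Ptpn7, Ido1, Gpr6, from 7, 11, 13 and 17 reads) also carry counting error.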
